A study of Homo sapiens with 18 samples.

Results

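Transcripts of 9 genes that degrade extracellular matrix or restrain its degradation were followed across 18 established cancer cell lines, each measured on 1 whole-transcriptome array. The genes were the matrix metalloproteinases MMP2, MMP7, MMP14 and MMP15, the urokinase plasminogen activator PLAU, its receptor PLAUR, and the inhibitors TIMP1, TIMP2 and TIMP3. They were chosen by name, with earlier results of these data known. These are 9 of the 19774 genes with a probe set of their own, with 23 probe sets between them. Among the probe sets annotated to a gene alone, the brightest on average over the lines was taken. All values are log2 intensities, and a value at or under 4.42, the 95th percentile of probe sets for genes of unrelated tissues, is read as not detected.

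All lines were labelled colorectal cancer (CRC). Per the labels, 10 lines (CAR1, CL40, HT55, HUTU80, LS180, OUMS23, RKO, SW1463, SW48 and SW948) grew in DMEM/F-12 with 15 mM HEPES, and 8 (COLO320HSR, HCT116, KM12, LS513, MDST8, NCIH716, RCM1 and SNUC1) in RPMI-1640 with 25 mM HEPES, a glucose supplement and 100 µM sodium pyruvate; serum, penicillin and streptomycin were added to both media. The labels give no treatment and no engineered change for any line. Each line was measured once and so has no replicate error; the number of arrays limits the precision. In HUTU80, which cell banks list as a duodenal line, and in RKO, MDST8, COLO320HSR and NCIH716, the epithelial cadherin gene CDH1 was not detected. It was between 8.81 and 11.58 in the other 13 lines. The mesenchymal marker VIM ran from 3.04 in SW948 to 13.19 in MDST8, and ZEB1, a repressor of CDH1, was detected in 6 lines and was highest in RKO (10.66).

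Matrix metalloproteinases are zinc enzymes made as inactive precursors. MMP2 cleaves basement membrane collagen, MMP7 is a small protease made by epithelial cells, and MMP14 and MMP15 are anchored in the plasma membrane. MMP14 activates the MMP2 precursor in a complex that also holds TIMP2. The TIMP proteins block the active site of metalloproteinases, and TIMP3 stays bound to the matrix. Urokinase cleaves plasminogen to plasmin, a broad protease, and is held on the cell surface by its receptor. In colorectal tumours much of the MMP2, urokinase and TIMP signal comes from stromal cells, which these cultures lack.

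Promoter windows from RefSeq (GRCh38.p14, 250 bases before to 50 after the gene start) were found for 7 of the 9 genes. They are shown for MMP7, for MMP10, a gene of the same chromosome 11 run that was detected in other lines, for PLAUR, whose closest companion over the lines was the AP-1 subunit gene FOSL1, and for TIMP3, the inhibitor seen in the fewest lines. Capitals mark, on either strand, matches to an AP-1 word (TGANTCA), to TCF words (the word CTTTGAA, the word CTTTGAT, the word CTTTGTA or the word CTTTGTT), to a GC box (GGGCGG) and to a TATA word (TATAAA). The windows are chr11:102530698-102530997 (minus strand) for MMP7, chr11:102780579-102780878 (minus strand) for MMP10, chr19:43670120-43670419 (minus strand) for PLAUR and chr22:32801455-32801754 (plus strand) for TIMP3.
MMP7: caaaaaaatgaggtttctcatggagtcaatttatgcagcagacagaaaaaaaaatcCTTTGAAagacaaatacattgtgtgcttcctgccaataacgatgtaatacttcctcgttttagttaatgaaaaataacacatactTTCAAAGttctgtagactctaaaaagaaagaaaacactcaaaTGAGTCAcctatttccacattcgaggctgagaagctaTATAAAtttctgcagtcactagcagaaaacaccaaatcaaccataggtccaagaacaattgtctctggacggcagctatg
MMP10: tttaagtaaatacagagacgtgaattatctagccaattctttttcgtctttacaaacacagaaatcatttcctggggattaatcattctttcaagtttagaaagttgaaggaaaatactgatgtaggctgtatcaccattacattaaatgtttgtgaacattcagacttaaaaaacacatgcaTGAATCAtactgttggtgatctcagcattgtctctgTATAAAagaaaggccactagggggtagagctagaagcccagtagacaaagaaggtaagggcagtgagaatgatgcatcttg
PLAUR: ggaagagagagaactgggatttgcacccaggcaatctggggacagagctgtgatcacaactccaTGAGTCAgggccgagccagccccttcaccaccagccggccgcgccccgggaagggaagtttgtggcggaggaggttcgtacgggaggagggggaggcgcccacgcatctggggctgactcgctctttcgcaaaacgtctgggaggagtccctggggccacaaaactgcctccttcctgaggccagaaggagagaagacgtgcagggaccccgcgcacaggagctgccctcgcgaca
TIMP3: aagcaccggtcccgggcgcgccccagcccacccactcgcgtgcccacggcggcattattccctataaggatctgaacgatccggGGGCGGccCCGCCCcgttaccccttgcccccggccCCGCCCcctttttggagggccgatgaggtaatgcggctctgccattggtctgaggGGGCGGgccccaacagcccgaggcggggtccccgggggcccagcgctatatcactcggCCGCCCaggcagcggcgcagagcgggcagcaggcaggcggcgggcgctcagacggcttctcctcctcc

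The MMP7 and MMP10 windows each held 1 AP-1 word, in both beginning at base -67 from the gene start, and 1 TATA word, beginning at -30 in MMP7 and at -31 in MMP10. MMP7 also held 2 TCF words, at -194 and -109. PLAUR held 1 AP-1 word at -186 and none of the other words. The windows not shown, of MMP14, MMP15, PLAU and TIMP1, held no AP-1 word. TIMP3 held 5 GC boxes, 31 CpG dinucleotides and 72.7% G and C, against 4 CpG and 35.7% in MMP7. Over all 35116 windows, 7.71% held the AP-1 word, 13.8% a TCF word, 45% the GC box and 11.5% the TATA word, and no match of the words searched overlapped another in the sequences shown. A match describes letters and was not tested as a binding site. PLAUR was shown because of its likeness to FOSL1, and a link between that likeness and its AP-1 word was not tested.

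The genes differed widely between lines. Of the 9, 8 spanned at least 3 log2 units over the panel, a condition that 35.8% of the 13691 genes above background in at least 1 line met; the exception was MMP15. The SD across lines had a median of 1.94 log2 units among them, against 0.61 among those 13691 genes. None of the 9 was detected in all lines, whereas 37.4% of all genes measured were. Because the 9 were chosen with earlier results known, these contrasts cannot be read as a trait of the gene family. In the 18 other metalloproteinase genes measured, the median SD was 0.25 log2 units, and 6 had a range of 3 log2 units or more. Without MDST8, 6 of the 9 kept such a range. The share of all genes that did so was not computed, so that count cannot be set against 35.8%.

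**Figure D1:**
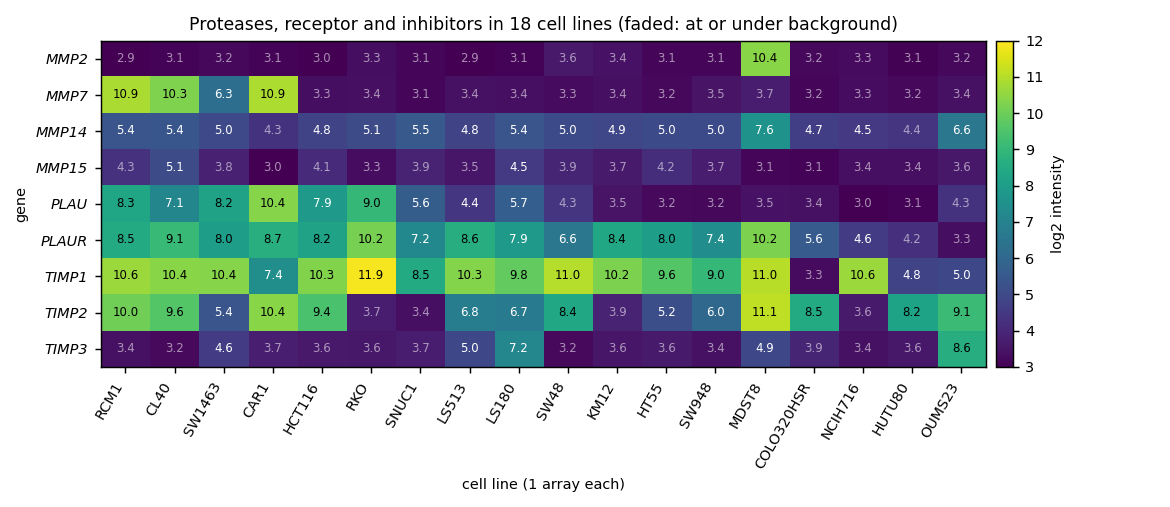
Log2 intensity of the 9 genes (rows) in the 18 lines (columns, 1 array each); colour and printed number give the value, and faded numbers lie at or under the background level of 4.42. MMP2 was detected in MDST8 alone, MMP7 in 4 lines, and TIMP1 in every line but COLO320HSR.

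Among the secreted metalloproteinases, MMP2 was detected in 1 line. It was 10.40 in MDST8, a line with mesenchymal transcripts, and between 2.88 and 3.61 in the other 17. The gap of 6.79 log2 units to the next line, SW48, far exceeded the spread of those 17. Of the genes above background somewhere, 8.74% were likewise detected in a single line, and 3.06% stood 3 log2 units or more above every other line. MMP2 had 2 more probe sets, which stayed at or under 3.51 in every line including MDST8, so the value rests on 1 probe set.

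MMP7, a protease of glandular epithelium, separated the lines into those that had it and those that did not. It was 10.89 in CAR1, 10.87 in RCM1, 10.25 in CL40 and 6.25 in SW1463. In the remaining 14 lines it lay between 3.15 and 3.68, all under background. CAR1 and RCM1 differed by 0.02 log2 units, and MMP7 had a single probe set, so their order cannot be read. CDH1 was detected in all 4 lines with MMP7, and in 9 of the lines without it.

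MMP7 opens a run of 9 metalloproteinase genes on chromosome 11 that were all measured, and other members of the run were detected in other lines. MMP1, an interstitial collagenase, was 11.79 in MDST8 and 5.18 in RKO, and at most 4.27 elsewhere. MMP10, a stromelysin, was 10.39 in HUTU80 and 6.15 in MDST8, and at most 4.11 elsewhere. MMP3, another stromelysin, was 6.84 in MDST8 and at most 3.59 in the other lines, and the elastase MMP12 was 6.08 in MDST8 and at most 3.39 in the others. No line that had MMP7 had MMP1, MMP3, MMP10 or MMP12 above background. Those genes were detected only in MDST8, RKO and HUTU80, so the lack of overlap rests on few lines and was not tested. MMP8, MMP13, MMP20 and MMP27 were not detected in any line.

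**Figure D2:**
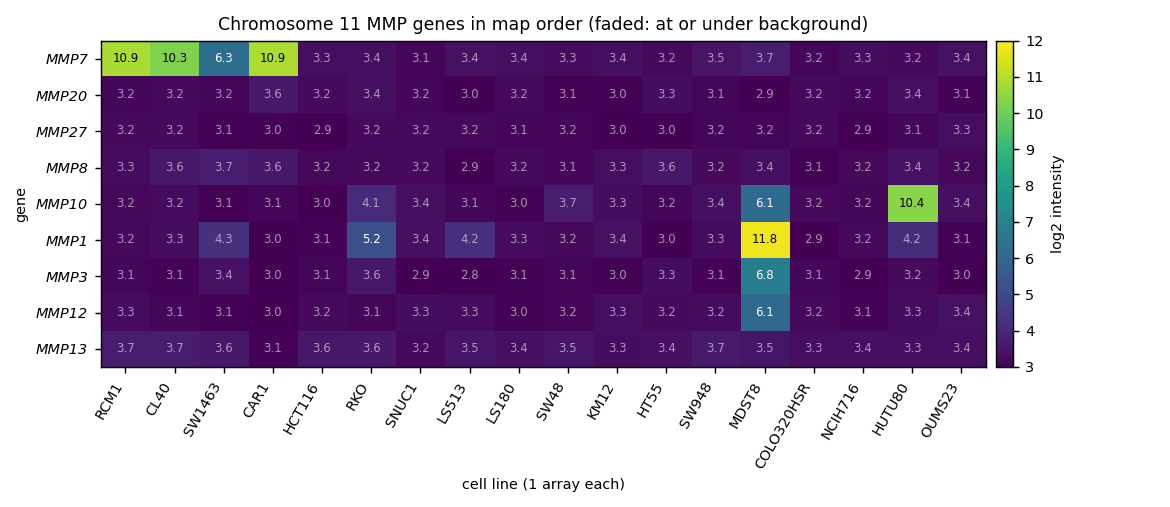
Log2 intensity of the 9 measured metalloproteinase genes of the chromosome 11 run, in map order from MMP7 at the top, in the 18 lines (1 array each); faded numbers lie at or under background. MMP7 was detected in RCM1, CL40, SW1463 and CAR1, MMP1, MMP3 and MMP12 were highest in MDST8 and MMP10 in HUTU80.

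Outside that run, the membrane-anchored MMP16 was 7.66 in COLO320HSR, 7.48 in MDST8 and 6.09 in NCIH716 and under background in the other 15 lines. MMP28, an epithelial metalloproteinase, was 9.05 in CL40 and 6.92 in LS513, and 5.05 or less elsewhere. MMP9, a gelatinase often made by leukocytes, reached at most 3.97 and was not detected. In all, 7 of the 18 other metalloproteinase genes measured (of 19 listed) were above background in at least 1 line, as were 13691 of all 19774 genes. Among those 7, 6 had a range of 3 log2 units or more, against 35.8% of the 13691. The seventh, MMP11, ran from 4.46 in CAR1 to 6.41 in SW48 and exceeded background in all 18 lines.

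Of the membrane-anchored members, MMP14 was highest in MDST8 (7.60) and OUMS23 (6.56). The next values were 5.53 in SNUC1, 5.42 in CL40, 5.38 in LS180 and 5.36 in RCM1, and the lowest were 4.36 in HUTU80 and 4.32 in CAR1, both under background. Apart from the highest pair, the lines lay close together and near background, and neighbours there differed by less than 0.31, the SD between the brightest pair of its 4 probe sets. All 4 probe sets placed MDST8 highest. The one with the largest SD spread the lines over 5.39 log2 units, against 3.28 in the one used. MMP15, which shares the membrane anchor, was 5.08 in CL40, 4.52 in LS180 and under background in the other 16 lines, with a median of 3.67. Its second probe set was at most 3.60, so MMP15 was at the limit of detection throughout.

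MDST8 was the highest line for 4 of the 9 genes: MMP2, MMP14, PLAUR and TIMP2. For PLAUR its lead over RKO was 0.04 and other probe sets placed RKO first, so that order cannot be read. MDST8 was the highest line for 8.76% of the 13691 genes. TIMP1 was also high there (11.03), while PLAU (3.46) and MMP7 (3.68) were not detected. MMP2, its membrane activator MMP14 and TIMP2 were high together in MDST8 alone; OUMS23, with the second highest MMP14 and a TIMP2 of 9.14, had MMP2 at 3.18. MDST8 expressed 7 of 7 mesenchymal reference genes, with a summed intensity of 13075.6 on the linear scale, against 63.2 to 8324.5 in the other lines. It expressed 4 of 8 fibroblast markers (summed intensity 1161.6, against 87.9 to 5326.2), of which COL1A1 (4.43) was at the background level. COL3A1 (3.09), DCN (4.16), PDGFRA (3.60) and PDGFRB (3.79) were not detected in MDST8. HUTU80 and NCIH716 expressed 6 and 5 of these fibroblast markers and had MMP2 at 3.06 and 3.27; the part of these genes in the result was not tested.

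**Figure D3:**
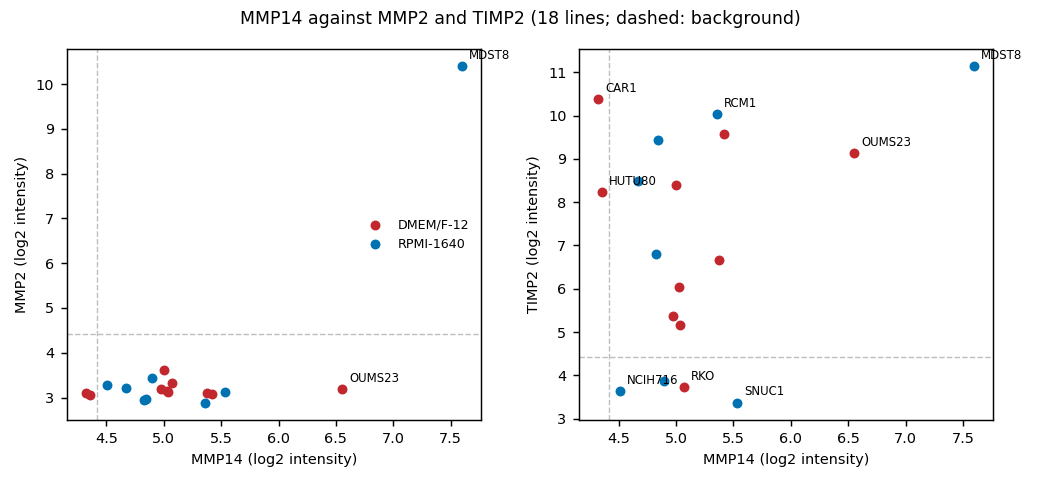
MMP14 (horizontal) against MMP2 (left) and TIMP2 (right), log2 intensity, 1 point per line coloured by medium; dashed lines mark background. MDST8 stands alone with all 3 genes high, and TIMP2 ran from 3.37 in SNUC1 to 11.14 in MDST8 while MMP14 changed little in most lines.

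In the plasminogen activation system, PLAU, the urokinase protease, was detected in 9 lines. It was highest in CAR1 (10.37), followed by RKO (9.01), RCM1 (8.34), SW1463 (8.17), HCT116 (7.89) and CL40 (7.12). Lower levels were found in LS180 (5.69), SNUC1 (5.64) and LS513 (4.43, at the background level), and the other 9 lines were between 2.98 and 4.35. All 4 lines with MMP7 were among the 6 with the most PLAU; RKO and HCT116 had PLAU without MMP7. The gap of 1.36 between CAR1 and RKO exceeded the SD of 0.40 between its probe sets, whereas RCM1 and SW1463 differed by less than it.

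PLAUR, the urokinase receptor, was more widely expressed and was detected in 16 lines. It was 10.21 in MDST8 and 10.17 in RKO, 9.08 in CL40, 8.68 in CAR1, 8.60 in LS513, 8.49 in RCM1, 8.39 in KM12, 8.18 in HCT116, 8.02 in HT55 and 8.01 in SW1463. Lower values were 7.87 in LS180, 7.40 in SW948, 7.19 in SNUC1, 6.58 in SW48, 5.60 in COLO320HSR and 4.58 in NCIH716. HUTU80 (4.23) and OUMS23 (3.32) were under background. MDST8 and RKO differed by 0.04, less than the SD of 0.17 between the brightest pair of probe sets, and the other 2 probe sets placed RKO first.

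The protease and its receptor did not always coincide. All 9 lines with PLAU had PLAUR, which was detected in 16 of the 18 lines. MDST8, KM12, HT55 and SW948 had PLAUR between 7.40 and 10.21 with PLAU between 3.19 and 3.47. SW48, COLO320HSR and NCIH716, with PLAUR between 4.58 and 6.58, also lacked PLAU. HUTU80 and OUMS23 had neither. Across the 18 lines PLAU and PLAUR had Pearson r = 0.50 and Spearman rho = 0.57, a description over arrays that share processing and, in part, medium; without CAR1 and RKO r was 0.39.

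Of 9 other genes of plasminogen activation that were measured (of 11 listed), 7 were above background somewhere, as were 13691 of all 19774 genes. Among those 7, 6 had a range of 3 log2 units or more, against 35.8% of the 13691. SERPINE2, a secreted inhibitor of urokinase and thrombin, ran from 3.39 in KM12 to 11.51 in SNUC1. S100A10 and ANXA2, which together bind plasminogen at the cell surface, were 3.41 and 3.27 in COLO320HSR and at least 9.17 and 12.02 in the other lines. MRC2, a collagen receptor associated with PLAUR, was 7.94 in CAR1 and 3.25 in SW48. PLAT, the tissue-type activator, was 6.58 in MDST8 and 5.96 in HCT116, and plasminogen itself (PLG) was not detected, with a highest value of 3.63. Of the 6 genes for processing and induction, ST14, a membrane serine protease that can activate urokinase, was detected in 13 lines and was highest in CAR1 (10.03). PCSK6, a furin-like convertase, ran from 3.14 in MDST8 to 8.62 in CL40.

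Among the inhibitors, TIMP1 was detected in 17 lines. It was 11.88 in RKO, 11.03 in MDST8, 11.02 in SW48, 10.64 in RCM1, 10.63 in NCIH716, 10.40 in CL40, 10.36 in SW1463, 10.35 in LS513, 10.28 in HCT116 and 10.23 in KM12. It was 9.83 in LS180, 9.60 in HT55, 8.99 in SW948, 8.51 in SNUC1 and 7.43 in CAR1. OUMS23 (4.97) and HUTU80 (4.84) were just above background and COLO320HSR (3.27) was under it. In 14 lines it was at least 8.51, and the other 4 lay below that. TIMP1 had a single probe set, so no technical spread can be given.

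TIMP2, a regulator as well as an inhibitor of MMP2, was detected in 14 lines. It was 11.14 in MDST8, 10.39 in CAR1, 10.04 in RCM1, 9.59 in CL40, 9.43 in HCT116, 9.14 in OUMS23, 8.49 in COLO320HSR, 8.40 in SW48 and 8.24 in HUTU80. It was 6.79 in LS513, 6.67 in LS180, 6.03 in SW948, 5.36 in SW1463 and 5.16 in HT55. KM12 (3.86), RKO (3.72), NCIH716 (3.64) and SNUC1 (3.37) did not have it. The SD between the brightest pair of its probe sets was 0.38, so that MDST8 stood above CAR1 by more than it, while CL40 and HCT116, or LS513 and LS180, did not differ beyond it.

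TIMP1 and TIMP2 coincided in some lines and not in others. RKO, highest for TIMP1, had no TIMP2, and nor did KM12, NCIH716 or SNUC1, in which TIMP1 was 10.23, 10.63 and 8.51. COLO320HSR, HUTU80 and OUMS23, the 3 lines with the least TIMP1, had TIMP2 between 8.24 and 9.14. CAR1, the next lowest for TIMP1, had the second highest TIMP2. Over all lines Pearson r was -0.24 and Spearman rho 0.01, and r was -0.18 without COLO320HSR and HUTU80. MDST8, RCM1, CL40, HCT116 and SW48 each exceeded the panel's mean by at least 1 log2 unit for both.

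TIMP3, the inhibitor that binds to matrix, was detected in 5 lines. It was 8.61 in OUMS23 and 7.17 in LS180, with 4.96 in LS513, 4.95 in MDST8 and 4.57 in SW1463. The other 13 lines were between 3.22 and 3.94. All 4 probe sets placed OUMS23 highest, at 8.61 to 9.75, and the gap of 1.44 to LS180 exceeded the SD of 0.52 between the brightest pair of probe sets. TIMP4, the remaining family member, was above background in 11 lines, from 4.43 in OUMS23 to 7.35 in LS513, and the membrane inhibitor RECK was detected in all 18, between 6.44 and 7.36.

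Each line could be placed by the genes that lay 1 log2 unit or more from their panel mean. CL40 had 6 of the 9 above it (MMP7, MMP15, PLAU, PLAUR, TIMP1 and TIMP2), and MDST8 and RCM1 had 5. COLO320HSR, HUTU80, NCIH716 and OUMS23 each had 4 below it, and they were the only lines of the 18 with PLAUR that low. TIMP1 was low in all of them but NCIH716, and in CAR1. MMP7 and PLAU were low there too, but MMP7 was that low in all 14 lines without it, and PLAU also in KM12, SW48, HT55, SW948, LS513 and MDST8. SNUC1, HT55 and SW948 had none above it. By highest line, MMP7 and PLAU peaked in CAR1 (7.44% of the 13691 genes did so). TIMP3 peaked in OUMS23 (8.93%), TIMP1 in RKO (6.77%) and MMP15 in CL40 (3.72%). The order of CAR1 and RCM1 for MMP7, 0.02 apart, cannot be read.

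PLAUR and TIMP1 had the highest Pearson r among pairs of the 9 genes in which each was detected in 3 or more lines and neither split the lines (r = 0.69, rho = 0.56, n = 18); by rho, PLAU and PLAUR stood above them at 0.57. Without OUMS23 and HUTU80, the lines farthest from the median of PLAUR, r was 0.45. Within the media it was 0.82 over the 10 DMEM/F-12 lines and 0.50 over the 8 RPMI-1640 lines. NCIH716, with TIMP1 at 10.63 and PLAUR at 4.58, departed most, and without it r was 0.81. MMP2 and MMP14 had r = 0.76 with all lines and r = -0.04 without MDST8. MMP14 and TIMP3 had r = 0.51, and 0.20 without MDST8 and OUMS23. No pooled r is given for MMP7, which split the lines into groups of 3 and 15, nor for any of the genes with CDH1 or VIM, which split them too.

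**Figure D4:**
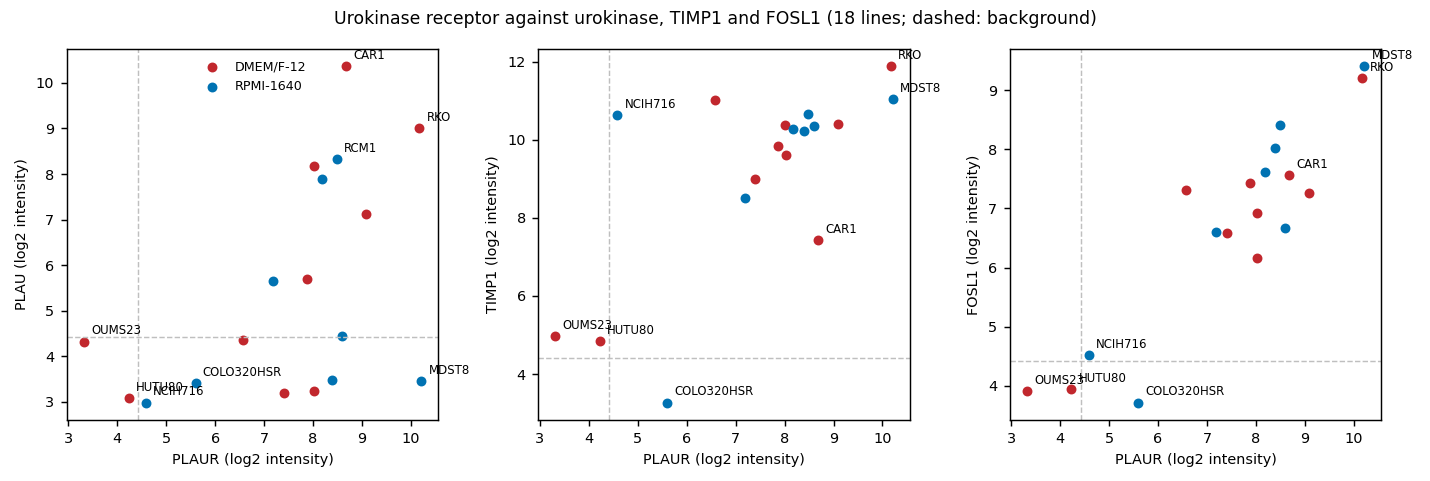
PLAUR (horizontal) against PLAU, TIMP1 and FOSL1 (vertical), log2 intensity, 1 point per line coloured by medium; dashed lines mark background. PLAU ran from 2.98 to 10.37 among lines with PLAUR above 4.42, and COLO320HSR, NCIH716, HUTU80 and OUMS23 had the lowest PLAUR and the lowest FOSL1.

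The genes whose pattern over the 18 lines was most like each of these genes were sought among 4898 others with a range of 3 log2 units or more, by Pearson r. Each r named was picked as extreme among 4898 over 18 lines, so its size partly reflects the search, and none was tested. No r is printed where either gene split the lines. PLAUR was closest to FOSL1, a subunit of AP-1 (r = 0.91, rho = 0.81). Next were CASP8, a caspase of the death receptor pathway (r = 0.89, rho = 0.635), and EMP1, an epithelial membrane protein (r = 0.86, rho = 0.82). FOSL1 was 9.41 in MDST8 and 9.21 in RKO, the pair with the most PLAUR, and 3.71 in COLO320HSR, 3.91 in OUMS23, 3.95 in HUTU80 and 4.52 in NCIH716, the 4 with the least. Without OUMS23 and HUTU80, r with FOSL1 was 0.87.

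TIMP1 was closest to the imprinted gene PHLDA2 (r = 0.93, rho = 0.76), followed by S100A6 and MGST1, a microsomal glutathione transferase, which both split the lines. PLAU was closest to ISG15, a ubiquitin-like interferon-induced protein (r = 0.77, rho = 0.77). Next were TAP2, a peptide transporter of antigen presentation that split the lines, and MX1, an interferon-induced GTPase (r = 0.76, rho = 0.62). TIMP2 was closest to ZNF280B (r = 0.82, rho = 0.78), TIAM1, a Rac exchange factor that split the lines, and SMAD3, a transducer of TGF-beta signals (r = 0.76, rho = 0.79).

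For MMP7, which split the lines, the closest were HLA-DQB1, an MHC class II gene, and IFIT2 and XAF1, both interferon-induced, and the most opposed was CBX2. By Spearman's rho HLA-DQB1, IFIT2 and XAF1 had ranks 310, 130 and 25 of 4898, so their closeness depends on the measure. MMP14 was closest to the collagen receptor DDR2 (r = 0.91), the proteoglycan SPOCK1 (r = 0.89) and the chemokine receptor CCR1 (r = 0.88). TIMP3 was closest to CSF2RA (r = 0.90), BCAT1, which split the lines, and NUPR1 (r = 0.83). Without the 2 lines farthest from the median of MMP14 or TIMP3, these 5 values were between 0.25 and 0.47. The most opposed gene was FKBP5 for MMP14 (r = -0.84, and -0.31 without those 2 lines) and CYP2R1 for TIMP3 (r = -0.77, and 0.06 without them), so both rest on those lines. It was FOXN3 for PLAU (r = -0.72), DSP-AS1 for PLAUR (r = -0.83), IP6K2 for TIMP2 (r = -0.75) and, for TIMP1, DIPK1B, which split the lines. For FOXN3, DSP-AS1 and IP6K2, r without the 2 lines farthest from the median was -0.53, -0.72 and -0.69.

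Other genes of matrix turnover also differed between lines. Of 7 matrix substrate genes measured, 5 had a range of 3 log2 units or more, against 35.8% of the 13691 genes above background in at least 1 line. Fibronectin (FN1) was 12.82 in MDST8 and 12.70 in HUTU80 and 3.32 in HT55. The basement membrane collagen genes COL4A1 and COL4A2 were highest in CAR1 (9.57 and 9.90), and the laminin chain LAMB3 in RKO (10.50). Of 8 regulators of protease genes, 7 had such a range, against the same 35.8%. The lists were chosen with earlier results known, so these counts cannot be read as a trait of such genes. ETS1, a transcription factor of protease genes, was 10.63 in CAR1, 10.48 in RKO, 9.89 in MDST8 and 8.78 in OUMS23, and at most 7.22 in the other 14 lines. ETS2, a relative, ran from 2.99 in HUTU80 to 11.19 in SW948, and JUN, an AP-1 subunit, was 3.24 in HT55 and between 8.24 and 11.81 in the other 17 lines. TWIST1 and SNAI2, repressors of epithelial genes, were highest in MDST8 (9.43 and 10.48).

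The labels allow 1 comparison between groups, of lines grown in DMEM/F-12 with lines grown in RPMI-1640. No gene among the 9 passed it, and the medium cannot be told apart from the identity of the lines. PLAU averaged 5.85 ± 2.66 in DMEM/F-12 (SD, n = 10) and 4.95 ± 2.12 in RPMI-1640 (SD, n = 8), a difference of 0.90 log2 units with a 95% interval of -1.36 to 3.17. MMP2 averaged 3.19 ± 0.17 (DMEM/F-12) and 4.03 ± 2.58 (RPMI-1640), a difference of -0.84, with MDST8 the one RPMI-1640 line in which it was detected. MMP7 averaged 5.06 ± 3.05 (DMEM/F-12) and 4.28 ± 2.67 (RPMI-1640). The other 6 differences lay between -0.44 for TIMP1 and 0.53 for TIMP3.

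In limma over all 13691 genes, 0 genes (0%) passed a Benjamini-Hochberg adjusted p under 0.05, 343 (2.51%) had an unadjusted p under that value, and the adjusted p was 0.999 for each of the 9. None of the 9 had an unadjusted p under 0.05 in limma or in an exact two-sided permutation test of the media labels, where p ran from 0.446 for PLAU to 0.888 for TIMP2. The values of the 2 media overlapped for every gene; for TIMP2 they ran from 3.72 to 10.39 with a median of 7.45 in DMEM/F-12 and from 3.37 to 11.14 with a median of 7.64 in RPMI-1640. The intervals are wide, so differences of 1 log2 unit in either direction remain within them for MMP7, PLAUR, PLAU, TIMP1 and TIMP2. Other genes of the lists were not called either, among them 0 of 7 other metalloproteinases and 0 of 7 plasminogen activation genes tested; 1 of these metalloproteinases had an unadjusted p under 0.05.

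**Figure D5:**
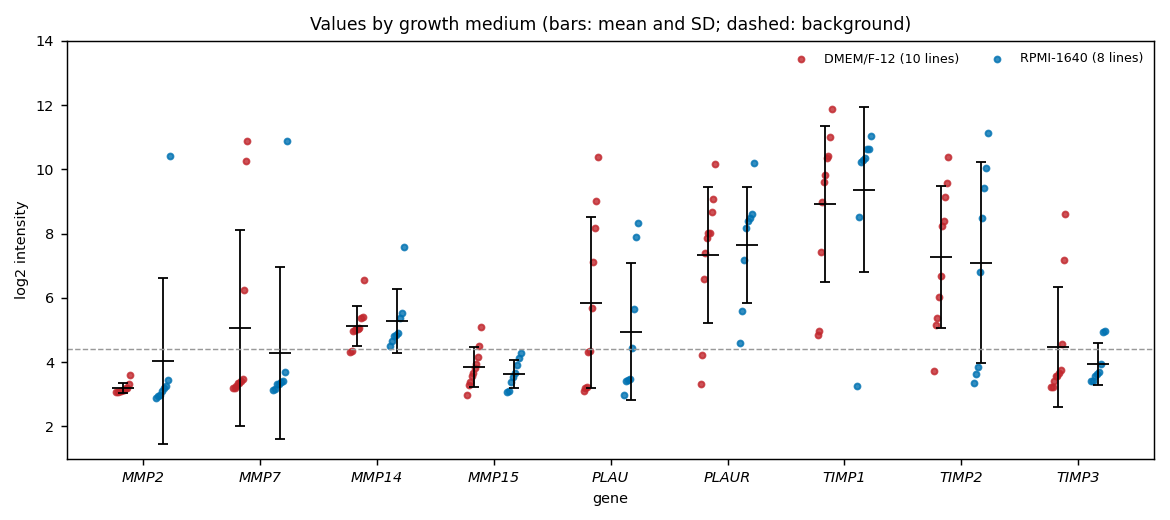
Log2 intensity of each gene in the 10 DMEM/F-12 lines (left, red) and the 8 RPMI-1640 lines (right, blue), 1 point per line, with mean and SD as black bars and the background level dashed. The points of both media overlap for all 9 genes.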

How the data were processed

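The authors deposited log2 intensities from RMA (affy), as the submitters' processing notes list; their versions are not given in the sources that were available. The table held 54613 probe sets and 18 arrays, with medians between 3.65 and 3.69, and was used as deposited. Of the probe sets, 40914 were annotated to 1 gene, 864 to several and 12835 to none; those with 1 gene were used (19774 genes). The background level, 4.42, was the 95th percentile over 80 probe sets of 44 genes restricted to other tissues (of 50 listed); some, such as MBP at up to 9.60, were expressed. In a given line 9878 to 10441 genes exceeded it. RMA brings arrays to 1 distribution and compresses low values, and 3' probe sets of a gene cannot be set against those of another.

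The media were compared with limma 3.58.1 (trend, Benjamini-Hochberg over 13691 genes above background in at least 1 line) in R 4.3.3, tested on simulated data. Samples were grouped by the medium in the growth protocol; p-values measure the spread between lines. Named were the 9 genes, for each detected in 3 or more lines its 3 most and 1 least correlated gene, and up to 4 genes per fixed list by SD with a range of 3 log2 units, besides MMP1, MMP3, MMP9, PLAT, CDH1, VIM and ZEB1. Other names were chosen after their values were seen. A gene split the lines where a gap exceeded 0.333 of its range and left 3 or more lines above and below. The genes and lists were chosen with earlier results of these data known. Alternatives were other probe set rules, array scaling, background levels, filters, limma settings, Spearman correlation and leaving out lines.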

Additional observations from a re-analysis of the deposited data

Results flagged for a closer look

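A line was set apart where its gap to the nearest line in the same medium, over the group's range, passed Dixon's 95% limit. Chance gives about 1 in 20 groups if values are normally distributed, which several groups, mostly near background, need not be. Here 6 of 18 groups had such a line, a count that cannot be read as an excess. In RPMI-1640 these were MDST8 for MMP2 (10.40, next 3.44) and for MMP14 (7.60, next 5.53), RCM1 for MMP7 (10.87, next 3.68), and COLO320HSR for TIMP1 (3.27, with the next lowest at 8.51). In DMEM/F-12 they were OUMS23 for MMP14 (6.56, next 5.42) and SW48 for MMP2 (3.61, next 3.33), the last of which lies under background. COLO320HSR also had ANXA2 and S100A10 under background.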

How the results depend on the processing

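No gene passed the comparison of media under any of the 7 other settings of limma, and no difference of the 9 genes changed sign where it was tested (MMP15 fell under the filter with the mean of probe sets, and MMP2 and MMP15 with a filter of 4 lines). With the mean of all probe sets the range of MMP2 was 2.58 and that of MMP15 was 0.98 log2 units. With the probe set of largest SD it was 5.39 for MMP14 and 6.85 for TIMP3. Leaving out each line gave ranges of 0.73 to 7.52 for MMP2, 2.23 to 3.28 for MMP14 and 1.55 to 2.11 for MMP15, and 3.95 to 5.39 for TIMP3. With the 90th percentile as background level MMP15 was detected in 8 lines. With the 99th percentile (8.39), which rests on expressed genes of that set, MMP14 and MMP15 were detected in 0 lines, PLAU in 2, PLAUR in 6, TIMP2 in 8 and TIMP3 in 1. With 1 log2 unit added to the level, an alternative chosen after seeing the data, MMP14 was detected in 3 lines, MMP15 in 0 and TIMP3 in 2. Asking for 2 or 4 log2 units instead of 3 kept 9 or 7 of the 9 genes, against 59.7% and 23.8% of the 13691 genes above background in at least 1 line. Of the 21 most similar genes named, 16 moved when Spearman's rho replaced r. No paired analysis was possible because each line was measured once and replicate numbers only follow the order of the samples.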
